A study of Mus musculus with 8 samples.

Results

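The 4 control arrays of a series of 8 expression arrays were used to describe which genes gave signal in mouse embryonic stem cells (ESCs) treated with a non-targeting esiRNA, and which genes varied from array to array. The cells were R1/E ESCs, a feeder-free mouse line grown on gelatin with serum and the cytokine LIF. All 4 cultures were transfected with 800 ng of esiRNA against luciferase (Luc), a mixture of short interfering RNAs against an insect gene that mouse cells lack, at 80000 cells per well, and RNA was taken after 48 h. The labels call the arrays biological replicates 1 to 4. The other 4 arrays come from R1/E cells that received esiRNA against Rad21 by the same procedure, and no comparison with them was made. Since all 4 arrays come from transfected cells, any effect of transfection itself is part of every value below.

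Naive mouse ESCs are held in self-renewal by a network of transcription factors centred on Oct4 (encoded by Pou5f1), Sox2 and Nanog, which bind many of the same enhancers and maintain each other's transcription. LIF feeds this network through its receptor, gp130 and Stat3, and BMP signals act through Smads and Id genes, whereas FGF4 made by the cells themselves drives ERK signalling and readiness to differentiate. Genes of later lineages, such as the Hox clusters, are kept silent in these cells by Polycomb and other repressors.

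Each gene was represented by 1 probe set, a group of array probes against 1 transcript, chosen as the brightest with a single gene symbol. Values are GCRMA signals on the log2 scale, so that a difference of 1 is a 2-fold difference. Of 18193 genes, 10256 had a mean of at least 4 over the 4 arrays and are called genes with signal (56.4%), and the remaining 7937 are called dim. The histogram of gene means had a narrow peak of dim genes and a broad range of genes with signal, with 6312 genes under 3 and 6597 at 8 or more. Few genes lay near the limit, with 500 means between 3.5 and 4 and 350 between 4 and 4.5, and 293 genes had arrays on both sides of 4. A dim probe set does not show that a gene is silent, because a probe set can fail to detect its transcript. Rps16, which encodes a core ribosomal protein, was dim at 1.89 ± 0.03 (SD, n = 4), as was the heterochromatin gene Cbx3 at 1.27 ± 0.02. Levels of different genes were not ranked against each other, since probe sets differ in how brightly they report the same amount of RNA. Genes without a probe set of a single symbol are not analysed here.

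**Figure D1:**
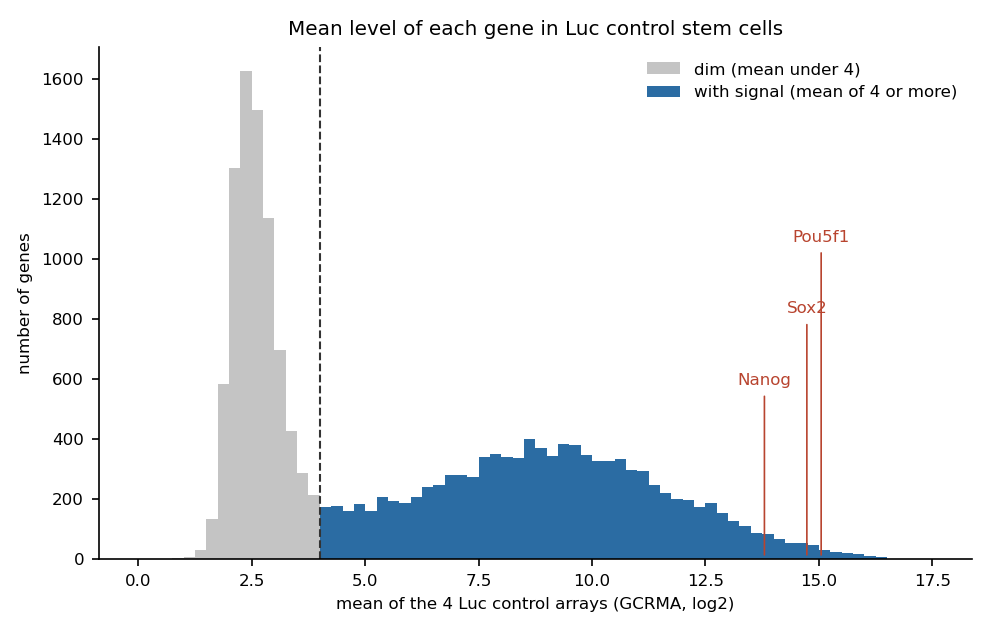
Number of genes by mean GCRMA value over the 4 Luc control arrays (log2), with dim genes in grey, genes with signal in blue and the limit of 4 as a dashed line. The stem cell markers Nanog, Sox2 and Pou5f1 lay at 13.80, 14.74 and 15.05, at the bright end of the distribution.

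The arrays matched the labelled cell type. Pou5f1 read 15.11, 15.13, 14.97 and 14.98 on replicates 1 to 4, Nanog read 13.90, 13.79, 13.73 and 13.78, and Sox2 read 14.66, 14.59, 14.83 and 14.87. All 3 were bright on every array, and the SD was at most 0.13. The gene lists were chosen with earlier results of these data known, so a full list can follow from that choice. With this limit, all 26 measured members of the core pluripotency list had signal, beside 56.4% of all genes. Their means ran from 8.59 to 15.10, including Zfp42 (Rex1) at 15.10 ± 0.02, the reprogramming factor Klf4 at 13.59 ± 0.06, Sall4 at 13.46 ± 0.05 and Tfcp2l1, a target of LIF signalling, at 12.17 ± 0.22. The gene listed there as Tcf3 (9.73 ± 0.05) is not Tcf7l1, which stands in the Tcf and Lef list. The 4 Dppa genes, early-embryo genes that mark pluripotent cells, all had signal, with Dppa5a at 15.90 ± 0.06 and Dppa3 (Stella) at 11.28 ± 0.13. All 25 DNA replication genes and all 21 mitosis genes also had signal.

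Markers of blood, liver and gut, fibroblasts, primitive endoderm and mesoderm had signal less often than all genes (56.4%). None of 12 blood and immune markers, 10 liver and gut markers or 38 olfactory receptors reached 4. Among 17 fibroblast and feeder markers 7 had signal, namely Vim, Fn1, Acta2, Col5a1, Pdgfrb, Thy1 and Twist1, whereas the fibroblast collagens Col1a1 (2.77), Col1a2 (2.46) and Col3a1 (3.07) and the matrix genes Postn (2.88) and Dcn (2.63) were dim. Among 16 primitive endoderm markers 4 had signal, and these were the matrix genes Sparc, Lama1 and Col4a1 and the endocytic adaptor Dab2, while the defining factors Gata4 (2.24), Gata6 (2.72), Sox17 (2.19) and Foxa2 (2.77) were dim. For mesoderm, 2 of 16 markers had signal, the cardiac myosin gene Myh6 at 8.43 ± 0.16 and the T-box gene Eomes at 7.01 ± 0.43. The values of the dim markers named here were seen before they were chosen.

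The shares with signal in other lineage lists lay on both sides of the 56.4% of all genes. Of 16 trophectoderm markers 9 did, among them the simple keratins Krt18 (11.35 ± 0.51) and Krt8 (11.07 ± 0.49), although Cdx2 (3.57), the factor that specifies this lineage, was dim. Of 15 neural markers 8 did, among them the tubulin-binding gene Stmn2 (13.97 ± 0.09), the proneural factor Neurod1 (9.69 ± 0.09) and neuronal tubulin Tubb3 (9.58 ± 0.06). The neural plate factor Sox1 (3.37) and the neuroblast gene Dcx (2.67) were dim. Of 17 germline markers 7 did, with the synaptonemal complex gene Sycp3 at 11.98 ± 0.20, the RNA helicase Ddx4 at 9.24 ± 0.40 and the RNA-binding gene Dazl at 8.55 ± 0.34. Of 12 epiblast markers 11 had signal, including the Nodal co-receptor Tdgf1 (Cripto, 14.87 ± 0.07), Otx2 (10.08 ± 0.32), Pou3f1 (Oct6) and Fgf5 (5.42 ± 0.47), with only the secreted antagonist Cer1 dim at 2.37. In RNA from a whole culture, a few cells with much of a transcript and many cells with little of it cannot be told apart.

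Among transcription factors and their partners, 257 of 528 measured members of 33 families had signal, or 48.7% beside 56.4% over all genes. The share differed widely between families. Signal was found for 12 of 13 members of the E2f and Rb list (E2f4 dim), 10 of 11 of the Myc, Max and Mxd network (Mxd1 dim), 7 of 8 Smads (Smad9 dim), 16 of 19 Atf, Creb and Cebp factors and 19 of 23 Klf and Sp factors. At the other end stood Hox genes with 2 of 33 (Hoxa5 at 4.74 ± 0.24 and Hoxc13 at 4.57 ± 0.04), Pax genes with 1 of 8 (Pax6 at 6.82 ± 0.46), proneural and myogenic bHLH factors with 4 of 31, T-box genes with 3 of 15, and the sine oculis, Eya, Dlx, Msx and Nkx homeobox genes and cofactors with 6 of 30.

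In the Sox family 9 of 19 members had signal, with Sox2 joined by Sox4 (11.56 ± 0.07), Sox11 (9.12 ± 0.06) and Sox15 (8.14 ± 0.04), while the endoderm factors Sox7 (3.61) and Sox17 (2.19) were dim. In the Pou family Pou5f1 and Pou3f1 were accompanied only by the sensory neuron factor Pou4f1, close to the limit at 4.62 ± 0.02. Of 15 T-box genes, the pluripotency factor Tbx3 (11.21 ± 0.03), Mga (10.68 ± 0.18), a subunit of a Polycomb complex, and Eomes had signal. In the Gata family the only members with signal were Gata2 (5.68 ± 0.05) and Gata1 (4.60 ± 0.32).

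Nuclear receptors gave a similar picture, with 16 of 44 having signal. They included Nr0b1 (Dax1, 12.81 ± 0.09), Esrrb (11.78 ± 0.08) and Nr5a2 (10.62 ± 0.12), which act in the pluripotency network, and Nr6a1 (GCNF, SD 0.02), which represses Pou5f1 as cells differentiate. In the Fox family 16 of 37 had signal, and these were mainly widely expressed members such as Foxp1 (11.08 ± 0.15) and Foxo3 (10.05 ± 0.18), with Foxh1 (8.63 ± 0.17), the partner of Smad2 in Nodal signalling, and the ESC factor Foxd3 (6.34 ± 0.12). The Ets family had 16 of 24, with the ERK target Etv5 at 14.25 ± 0.02 and Gabpa, a regulator of housekeeping promoters, at 12.23 ± 0.01. All 4 members of the Tcf and Lef list had signal, with beta-catenin (Ctnnb1) at 14.64 ± 0.06 and Tcf7l1, the repressor that restrains the pluripotency network, at 9.93 ± 0.05. Of 7 Zic and Gli genes with signal out of 10, Zic5 read 10.38 ± 0.23, Zic2 8.72 ± 0.17 and Gli2 11.24 ± 0.14.

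**Figure D2:**
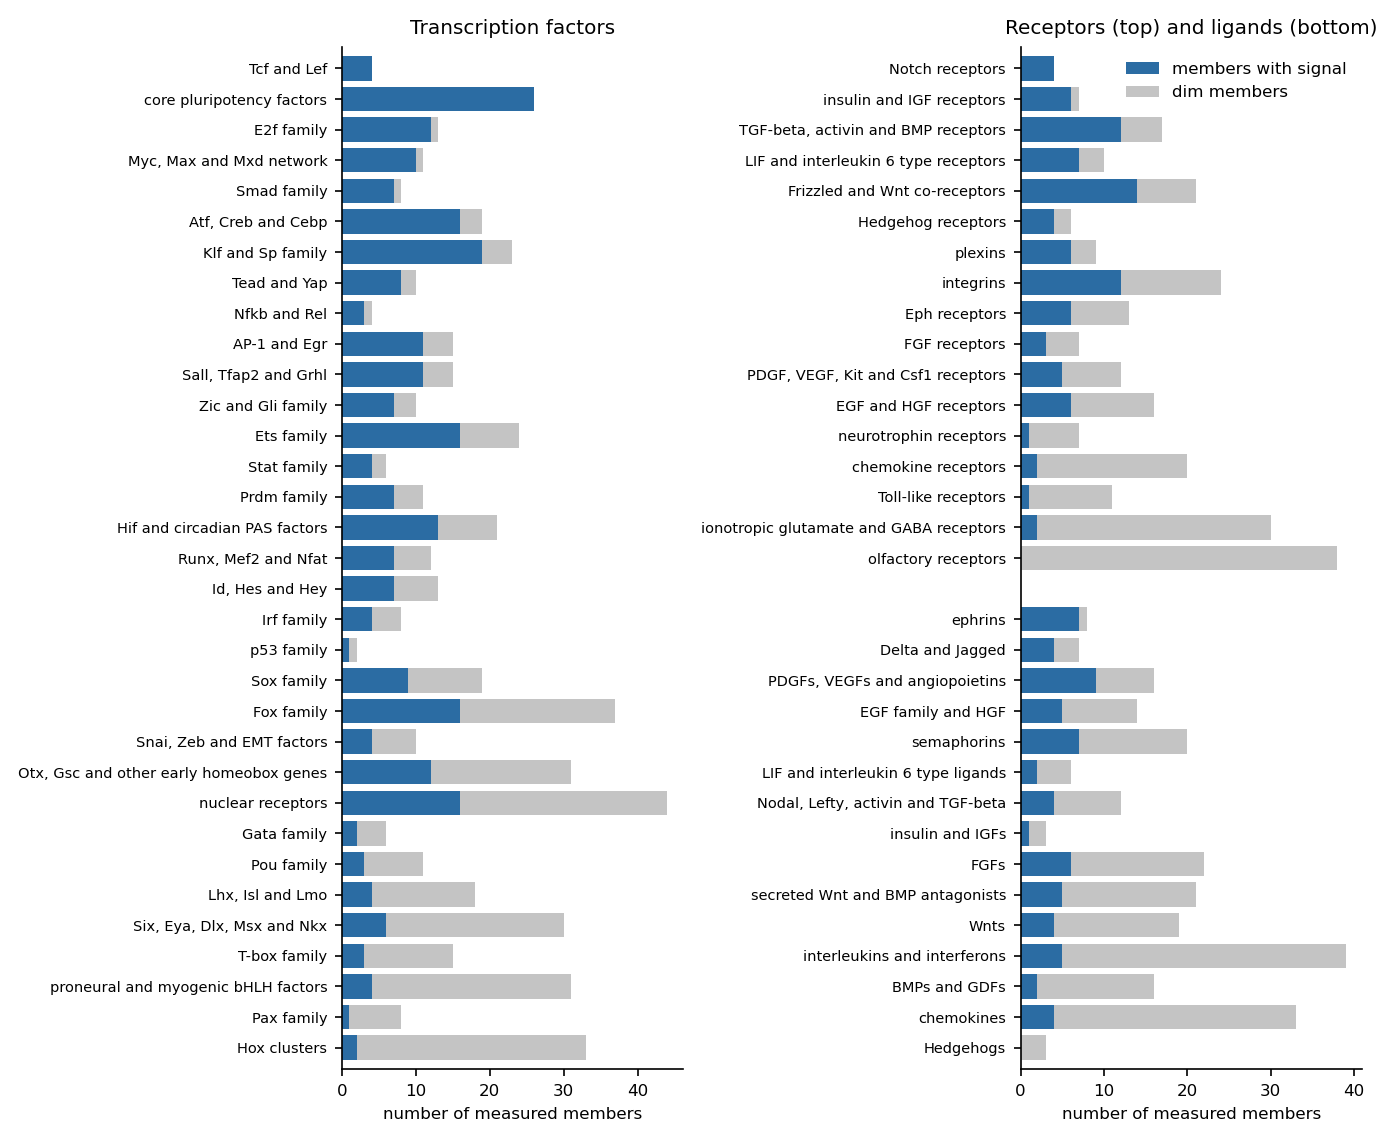
Number of measured members with signal (blue) and dim members (grey) in each family of transcription factors (left), receptors (right, top) and ligands (right, bottom), each block in order of the share with signal. The core pluripotency list, chosen with earlier results known, was complete at 26 of 26, whereas Hox clusters had 2 of 33 and olfactory receptors 0 of 38.

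Members of the receptor and ligand lists had signal less often than all genes, with 91 of 252 on the receptor side (36.1%) and 65 of 237 on the ligand side (27.4%) beside 56.4%. The receptor lists also hold the kinases Jak1, Jak2, Jak3 and Tyk2 and the adaptors Irs1, Irs2 and Irs4, all with signal. With the median of a gene's probe sets in place of the brightest, 60 members of the receptor lists had signal. For LIF, the receptor chain Lifr (10.52 ± 0.07), the shared chain gp130 (Il6st, 9.68 ± 0.05), the kinases Jak1 (8.21 ± 0.07) and Tyk2 (8.25 ± 0.08) and the effector Stat3 (9.29 ± 0.05) had signal, and so did all 12 targets in the LIF and STAT3 list, with Socs3, the feedback inhibitor, at 13.16 ± 0.07. Lif itself read 5.64 ± 0.21. The receptor chains Il6ra (2.64) and Osmr (2.47) for related cytokines were dim.

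The share of FGFs with signal (27.3%) was near that over all ligand lists (27.4%). Of 22 FGFs 6 had signal, namely Fgf4, the autocrine FGF of ESCs, at 11.48 ± 0.08, Fgf17 (8.32 ± 0.20), Fgf15 (8.01 ± 0.18), Fgf13 (7.31 ± 0.15), Fgf18 (5.82 ± 0.45) and Fgf5. Fgfr1 (8.85 ± 0.08), Fgfr2 (7.69 ± 0.27) and the receptor-like Fgfrl1 (7.64 ± 0.09) had signal, whereas Fgfr3 (3.89) lay just under the limit and Fgfr4 was at 3.5. All 13 ERK feedback genes had signal, such as the phosphatase Dusp6 (11.46 ± 0.03) and the inhibitors Spry2 (11.18 ± 0.05) and Spry4 (11.21 ± 0.31).

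In the Nodal, activin and BMP pathways signal was found for fewer of the ligands than of the receptors. Nodal (11.52 ± 0.08), its antagonists Lefty1 (10.87 ± 0.72) and Lefty2 (9.25 ± 0.86) and the activin subunit Inhbb (9.09 ± 0.37) were the 4 of 12 ligands with signal, while the activin subunit Inhba (2.50) and all 3 Tgfb genes were dim. Of 16 BMPs and GDFs only Bmp4 (11.15 ± 0.28) and Gdf3 (11.79 ± 0.08) had signal. On the receptor side 12 of 17 did, including the type I receptors Tgfbr1 (10.31 ± 0.10), Bmpr1a (9.92 ± 0.08) and Acvr1b (9.18 ± 0.16) and the type II receptors Bmpr2 (9.17 ± 0.02), Acvr2a (8.90 ± 0.09) and Acvr2b (8.03 ± 0.31). The TGF-beta receptor Tgfbr2 (3.77) was dim. The BMP targets Id1 (12.08 ± 0.07), Id2 (11.82 ± 0.10) and Id3 (10.13 ± 0.07) had signal.

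In the Wnt and Hedgehog lists, too, a smaller share of ligands than of receptors had signal. The same held over all ligand lists (27.4%) and receptor lists (36.1%), so this is not particular to these pathways. The order was opposite for PDGFs, VEGFs and angiopoietins (9 of 16) and their receptor list (5 of 12). It was also opposite for ephrins (7 of 8) and Eph receptors (6 of 13). Receptor counts rest on the brightest probe set and fell with the median. Of 19 Wnts 4 had signal, namely Wnt4 (6.83 ± 0.48), Wnt7b (6.64 ± 0.37), Wnt5a (4.28 ± 0.41) and Wnt7a (4.11 ± 0.12), whereas 14 of 21 Frizzleds and co-receptors did, with Lgr4 at 11.58 ± 0.14, Fzd5 at 11.42 ± 0.08, Fzd7 at 10.74 ± 0.12 and Lrp6 at 8.03 ± 0.31. Of 12 Wnt targets 6 had signal, among them Axin2, the feedback inhibitor, at 5.66 ± 0.28. Shh (3.03), Ihh (1.93) and Dhh (3.19) were all dim, while the Hedgehog receptor Ptch1 read 12.33 ± 0.04, Smo 8.10 ± 0.15 and the effector Gli1 8.82 ± 0.37.

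Contact-dependent ligands were represented on both sides. All 4 Notch receptors had signal, among them Notch2 at 9.01 ± 0.13 and Notch4 at 6.47 ± 0.25, together with 4 of 7 Delta and Jagged genes, Jag1 (9.67 ± 0.08), Jag2 (6.96 ± 0.09), Dll3 (6.73 ± 0.18) and Dll1 (5.64 ± 0.11). Ephrins had signal in 7 of 8 cases (Efnb3 dim) and Eph receptors in 6 of 13, with Epha4 at 8.95 ± 0.15 and Epha2 at 8.42 ± 0.02. Pdgfa (11.37 ± 0.12) and Pdgfc (11.93 ± 0.08) had signal, while their receptor Pdgfra (3.13) was dim and Pdgfrb read 5.58 ± 0.55. Kit, the stem cell factor receptor, read 9.21 ± 0.15 and its ligand Kitl 6.84 ± 0.20. Immune signalling genes were mostly dim, with signal in 5 of 39 interleukins and interferons, 4 of 33 chemokines, 2 of 20 chemokine receptors and 1 of 11 Toll-like receptors (Tlr2, 5.30 ± 0.35).

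Paralogs of 1 protein family were compared by whether each had signal. Of 168 measured members of 24 sets 101 did (60.1%), a share near the 56.4% over all genes. All 5 members of the DNA methyltransferase list had signal, of which Trdmt1 (9.26 ± 0.09) encodes a tRNA methyltransferase of the same protein family. They included the de novo enzyme Dnmt3b at 14.18 ± 0.05, its cofactor Dnmt3l at 13.97 ± 0.06 and the maintenance enzyme Dnmt1 at 12.43 ± 0.09. Of the Tet dioxygenases, which oxidise methylcytosine, Tet1 (13.61 ± 0.07) and Tet2 (11.15 ± 0.17) had signal and Tet3 (2.29) was dim. Lin28a (12.66 ± 0.13), which blocks let-7 maturation, had signal and Lin28b (3.43) did not. Of the cohesin kleisins, Rad21 read 13.62, 13.42, 13.83 and 13.79 on the 4 arrays, a mean of 13.67 ± 0.19, and the meiotic Rec8 was dim at 3.61. The mitotic cohesin subunits Smc1a (12.03 ± 0.04), Smc3 (11.89 ± 0.03), Stag1 (10.71 ± 0.07) and Stag2 (11.37 ± 0.14) had signal, and so did the meiotic Stag3 (7.77 ± 0.34), whereas the meiotic Smc1b (3.82) was dim.

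Other paralog sets differed in the same way. All 5 D-type and E-type cyclins had signal, while among A-type and B-type cyclins Ccna2 (12.66 ± 0.12) and Ccnb2 (12.71 ± 0.10) did and the germline forms Ccna1 (3.04) and Ccnb3 (2.77) did not. E-cadherin (Cdh1, 13.97 ± 0.07), N-cadherin (Cdh2, 9.24 ± 0.16) and P-cadherin (Cdh3, 6.74 ± 0.27) had signal among 21 cadherins, with Cdh10 at the limit (4.03 ± 0.45). Glucose uptake was represented by Slc2a1 (14.89 ± 0.24) and Slc2a3 (14.73 ± 0.15) and 2 further members of 11 transporters, Slc2a8 (6.78 ± 0.14) and Slc2a4 (5.02 ± 0.08). Hexokinases Hk2 (13.29 ± 0.09) and Hk1 (8.80 ± 0.31) had signal and Hk3 (2.64) did not. Of 20 claudins, the tight junction proteins, 6 had signal, including Cldn4 (10.03 ± 0.27), Cldn6 (9.0 ± 0.20) and Cldn7 (9.73 ± 0.33).

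Around the limit of 4, the listed regulators just under it were Crxos (3.98), Fgf3 (3.97), Meis1 (3.95) and Tgfb2 (3.91), and those just above it were Foxa3 (4.0), Sp7 (4.01), Pbx4 (4.02) and Cdh10 (4.03). The Tgfb2 mean was raised by a single array, since the gene read 4.92 on replicate 1 and 3.51, 3.62 and 3.60 on the others.

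The 4 arrays were alike but did not scatter evenly. Pearson correlations over all probe sets lay between 0.998 and 0.999, medians between 3.08 and 3.15, and between 10236 and 10262 genes were at 4 or more on an array. GCRMA sets all arrays to a common distribution, so the near-equal medians and counts can follow from it and say little about likeness. Replicates 1 and 2 differed by at least 2-fold in 8 genes with signal, and so did replicates 3 and 4, while each of the 4 pairs that joined an array of one pair with an array of the other differed in 71 to 77 genes. A principal component analysis of probe sets with signal gave the same division, with the leading component holding 64.8% of the variance and placing replicates 1 and 2 at 17.1 and 19.0 and replicates 3 and 4 at -18.3 and -17.8. The division came from these values, and the labels name no batch, date or culture that would match it. The 3′ to 5′ difference of the Actb control probe sets, a measure of RNA integrity, ranged from 0.37 to 0.46 and that of Gapdh from -0.28 to -0.23, with no array apart from the others. What the division came from was not tested.

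Most genes varied little. Among genes with signal the median SD over the 4 arrays was 0.109, with quartiles of 0.0692 and 0.171, and 4615 genes (45.0%) had an SD under 0.1. An SD of at least 0.5 was found for 125 genes (1.22%), of which 58 had means between 4 and 6. The core pluripotency factors, DNA replication genes and mitosis genes had none, which at 1.22% of all genes with signal says little for lists of 26, 25 and 21 genes. SDs were smaller at higher levels, with a median of 0.170 at means of 4 to 6 and 0.0885 at 10 to 12. The core factors had a median SD of 0.0877 and a median percentile of 54.5 among genes of like mean, so they lay near the middle of such genes. By class of list, 7 members with signal of the transcription factor lists, 2 of the receptor lists and 2 of the ligand lists reached 0.5. The transcription factor lists hold the immediate-early gene Ier3 and do not hold the bHLH repressor Bhlhe40.

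**Figure D3:**
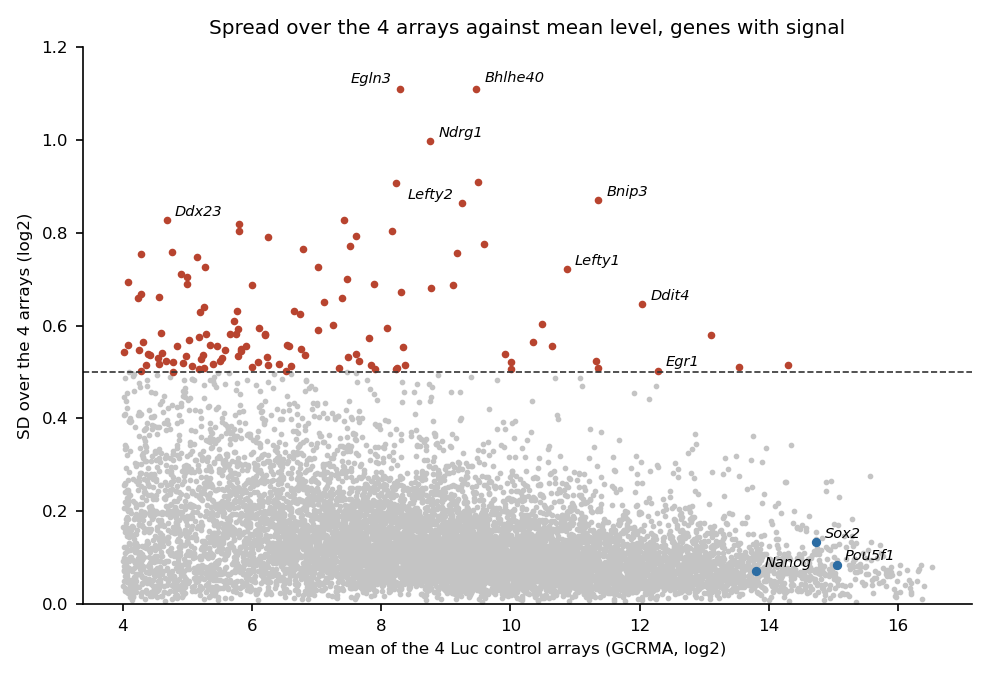
SD over the 4 arrays against mean level (both log2) for the 10256 genes with signal, with the 125 genes of SD at least 0.5 in red and the limit as a dashed line. Pou5f1, Nanog and Sox2 (blue) lay at an SD of 0.13 or less, and Bhlhe40 and Egln3 lay highest at 1.11.

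The genes that varied most followed the division of the arrays. Of all genes with signal, 34.7% had both of replicates 1 and 2 above both of replicates 3 and 4, and 21.9% had them below. Of the 125 varying genes 78 lay above in this sense, 37 below and 10 mixed, and of the 20 with the largest SD 15 lay above and 5 below. SD and order were read from the same values, so the shares among varying genes are a description of them and support nothing further.

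The largest SD belonged to Bhlhe40 (Dec1), a bHLH repressor that answers to hypoxia and the circadian clock, which read 10.53, 10.32, 8.49 and 8.53 on replicates 1 to 4 (SD 1.11). Egln3, an oxygen-sensing prolyl hydroxylase that marks hypoxia-inducible factor (HIF) for destruction, read 9.14, 9.36, 7.41 and 7.26 (SD 1.11), and its relative Egln1 read 8.34, 8.26, 6.84 and 7.03 (SD 0.79). For all 3 genes every value of replicates 1 and 2 was more than 1 log2 unit above those of replicates 3 and 4. Ndrg1, a stress gene induced by low oxygen, read 9.52, 9.73, 7.87 and 7.94 (SD 1.0). Bnip3, a mitophagy receptor and HIF target, read 12.19, 12.02, 10.59 and 10.61 (SD 0.87), and Ankrd37, another HIF target, 8.0, 8.27, 6.70 and 6.73 (SD 0.83). The glycolytic enzyme gene Aldoc read 10.26, 10.25, 8.99 and 8.84 (SD 0.77). These genes had the same order of arrays, high on replicates 1 and 2.

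Other genes high on replicates 1 and 2 had different roles. Lefty2, the feedback inhibitor of Nodal, read 10.08, 9.91, 8.61 and 8.41 (SD 0.86), and its close relative Lefty1 11.57, 11.41, 10.19 and 10.31 (SD 0.72), whereas Nodal itself had an SD of 0.08. The immediate-early gene Ier3 read 10.22, 10.36, 8.73 and 8.71 (SD 0.91), and the cyclin gene Ccng2 9.02, 9.02, 7.56 and 7.35 (SD 0.91). The Wnt target Sp5 read 7.90, 8.26, 6.48 and 7.45 (SD 0.77), so that replicate 4 lay nearer to replicate 1 than to replicate 3. The remaining genes of this order among the 20 were A2m, a protease inhibitor (SD 0.82), Susd2 (SD 0.80), Pdlim4 (SD 0.79) and the channel gene Trpm1 (SD 0.77), with A2m at 6.27, 6.63, 5.47 and 4.80, Susd2 at 6.41, 6.56, 4.92 and 5.34, Pdlim4 at 6.73, 7.10, 5.51 and 5.65 and Trpm1 at 7.50, 7.38, 6.25 and 6.01.

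The 5 genes low on replicates 1 and 2 were Ddx23, Cox7c, Sned1, Snhg16 and Aldh1l2. Cox7c, a subunit of cytochrome c oxidase, read 7.44, 7.51, 8.93 and 8.79 (SD 0.80), and the small nucleolar RNA host gene Snhg16 8.59, 8.46, 9.79 and 9.87 (SD 0.76). The other 3 crossed the limit of 4. Aldh1l2, a mitochondrial folate enzyme, read 3.68, 3.59, 4.93 and 4.95 (SD 0.75), the splicing helicase gene Ddx23 3.54, 4.62, 5.13 and 5.42 (SD 0.83), and Sned1 4.43, 3.86, 5.20 and 5.54 (SD 0.76).

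**Figure D4:**
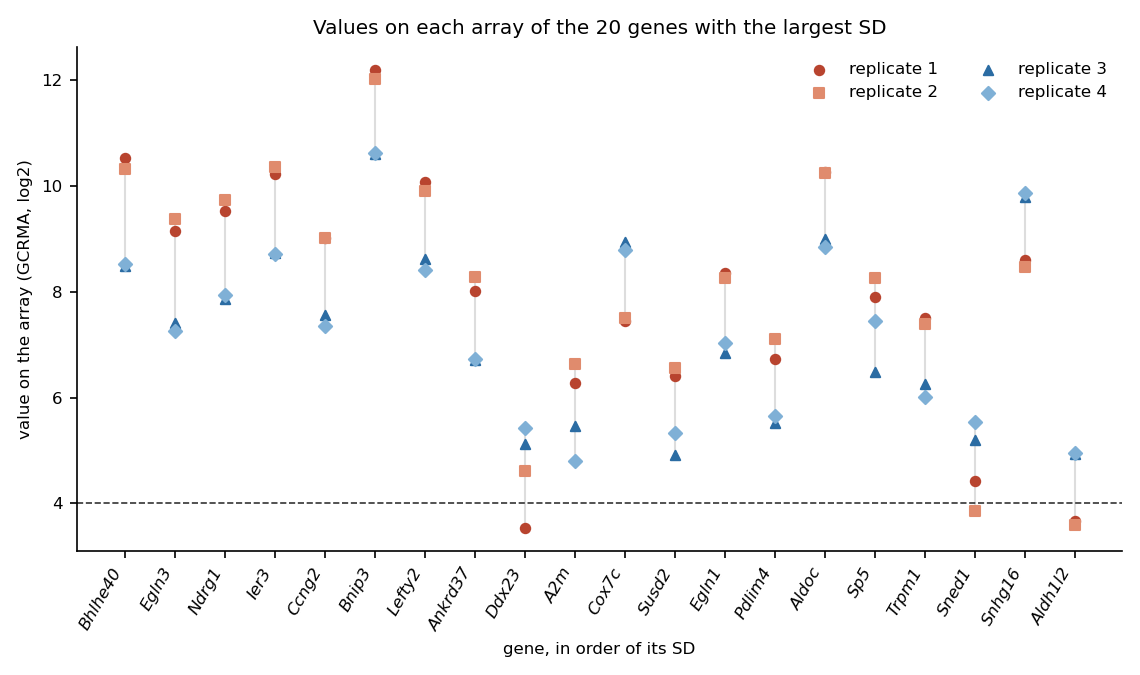
GCRMA value (log2) on each of the 4 Luc control arrays for the 20 genes with signal and the largest SD, in order of SD, with the limit of 4 dashed. In 15 genes replicates 1 and 2 (red) lay above replicates 3 and 4 (blue), and in Ddx23, Cox7c, Sned1, Snhg16 and Aldh1l2 they lay below.

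Listed regulators with signal outside this group varied less. In the transcription factor lists the next genes with signal in order of SD were Spic (5.47, 6.02, 4.31 and 4.81), Id4, a BMP target (7.81, 8.07, 6.67 and 7.02), and Ets1 (6.12, 6.14, 5.76 and 4.84), with SDs of 0.75, 0.66 and 0.61. The 5 receptors with signal and the largest SD were the chemokine scavenger Ackr3 (7.88, 8.24, 6.78 and 6.99), Pdgfrb (6.14, 5.90, 4.94 and 5.32), Insr (5.92, 5.56, 4.91 and 5.39), Amhr2 (7.93, 8.14, 7.31 and 7.41) and Ror1 (5.67, 6.07, 5.61 and 5.13). Of the receptors with signal, only Ackr3 (0.70) and Pdgfrb (0.55) had an SD over 0.5. After the Lefty genes, the ligands with signal were Wnt4 (6.97, 7.45, 6.43 and 6.47), Fgf5 (5.96, 5.66, 4.93 and 5.12) and Efna5 (5.44, 5.22, 4.78 and 4.40), with SDs of 0.48, 0.47 and 0.47. Replicates 1 and 2 lay above replicates 3 and 4 in all of these genes. The limit of 4 left out dim members with larger SDs, the receptor genes Tgfbr3 (SD 0.96) and Hhip (SD 0.61) and the ligand gene Tgfb2 (SD 0.67).

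Of 17 lists of genes tied to the state of a culture, those for hypoxia, cholesterol and the stress response are described in detail. Other lists were divided too. Replicates 1 and 2 lay above replicates 3 and 4 in 7 of 8 Nodal and Smad2 targets with signal and 5 of 6 Wnt targets. The same held for all 4 Notch targets and 8 of 12 immediate-early genes. Of 18 p53 targets 6 lay above and 6 below. Whether any list reports a state of these cultures was not tested. In the hypoxia and glycolysis list 18 of 20 genes had signal, 16 of the 18 had replicates 1 and 2 above replicates 3 and 4 (88.9% beside 34.7% of all genes with signal), and 8 had an SD of at least 0.5 (beside 1.22%). Over the 18 genes the median deviation from the gene's own mean was 0.33 on replicate 1, 0.27 on replicate 2, -0.28 on replicate 3 and -0.26 on replicate 4, beside medians between -0.03 and 0.03 over all genes with signal. The mTOR inhibitor Ddit4 read 12.60, 12.61, 11.47 and 11.50, and the collagen prolyl hydroxylase genes P4ha1 and P4ha2 read 8.63, 8.75, 7.82 and 7.80, and 7.25, 7.32, 6.36 and 6.34. The glycolytic enzyme gene Pgk1 and the glucose transporter gene Slc2a1 differed less, with Pgk1 at 15.06, 15.18, 14.64 and 14.70 and Slc2a1 at 15.17, 15.01, 14.67 and 14.70. Vegfa, an angiogenic HIF target, had the opposite order at 8.08, 7.77, 8.53 and 8.40, and Pdk1 was mixed. The HIF subunit genes were steadier, with Hif1a at 12.81, 12.77, 12.97 and 12.83 and Epas1 at 11.84, 11.95, 11.62 and 11.65.

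All 15 cholesterol synthesis genes had signal. Of these, 14 had replicates 1 and 2 above replicates 3 and 4 (93.3% beside 34.7% of all genes with signal), although none reached an SD of 0.5. Insig1, which holds back the sterol-sensing factor SREBP, read 11.13, 11.02, 10.39 and 10.38, Hmgcs1, which makes HMG-CoA, 13.53, 13.31, 13.19 and 13.11, and Fdps 12.80, 12.83, 12.22 and 12.37. Srebf2, which encodes the main activator of these genes, was mixed at 8.87, 8.84, 8.69 and 8.86. The list's median deviations were 0.22, 0.25, -0.16 and -0.19 on replicates 1 to 4.

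The integrated stress response list, targets of Atf4 that supply amino acids and adapt translation, ran the other way. Of its 23 genes with signal 18 had replicates 1 and 2 below replicates 3 and 4, beside 21.9% of all genes with signal, and 3 had them above. Nupr1 read 9.48, 9.29, 10.28 and 10.12, the serine synthesis gene Psat1 13.72, 13.62, 14.16 and 14.32, and the glutathione-degrading Chac1 9.39, 9.46, 9.92 and 9.88, while Atf4 itself was mixed at 13.14, 13.28, 13.22 and 13.27. The 3 above were Ddit3, Stc2 and Ddit4, which is also on the hypoxia list. Median deviations were -0.13, -0.15, 0.15 and 0.18.

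Markers of differentiation and of the germline were divided too. Of the 9 trophectoderm markers with signal 8 had replicates 1 and 2 above replicates 3 and 4, beside 34.7% of all genes with signal, with Krt18 at 11.80, 11.79, 10.90 and 10.91, Krt8 at 11.51, 11.47, 10.74 and 10.57 and Krt19 at 8.77, 8.87, 7.85 and 7.89. The same order was found in 5 of 7 fibroblast and feeder markers with signal, 6 of 11 epiblast markers and 3 of 8 neural markers. It was therefore not particular to trophectoderm. All 6 claudins with signal had the same order, with Cldn3 at 7.19, 7.75, 6.79 and 6.36. Of 7 germline markers 4 had the opposite order, beside 21.9% of all genes with signal, such as Ddx4 at 9.05, 8.77, 9.65 and 9.48, and Pax6 read 6.46, 6.39, 7.22 and 7.22. Among the core pluripotency factors, 7 had replicates 1 and 2 above (26.9% beside 34.7%) and 9 below (34.6% beside 21.9%), with median deviations between -0.02 and 0.03. Egr1, an ERK target, read 11.77, 11.93, 12.74 and 12.68. Of the 13 ERK feedback genes, which include Egr1, 3 had replicates 1 and 2 above and 6 below. Of 12 immediate-early genes with signal, also including Egr1, 8 had them above and 2 below. The part of these markers in the differences between the arrays was not tested.

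**Figure D5:**
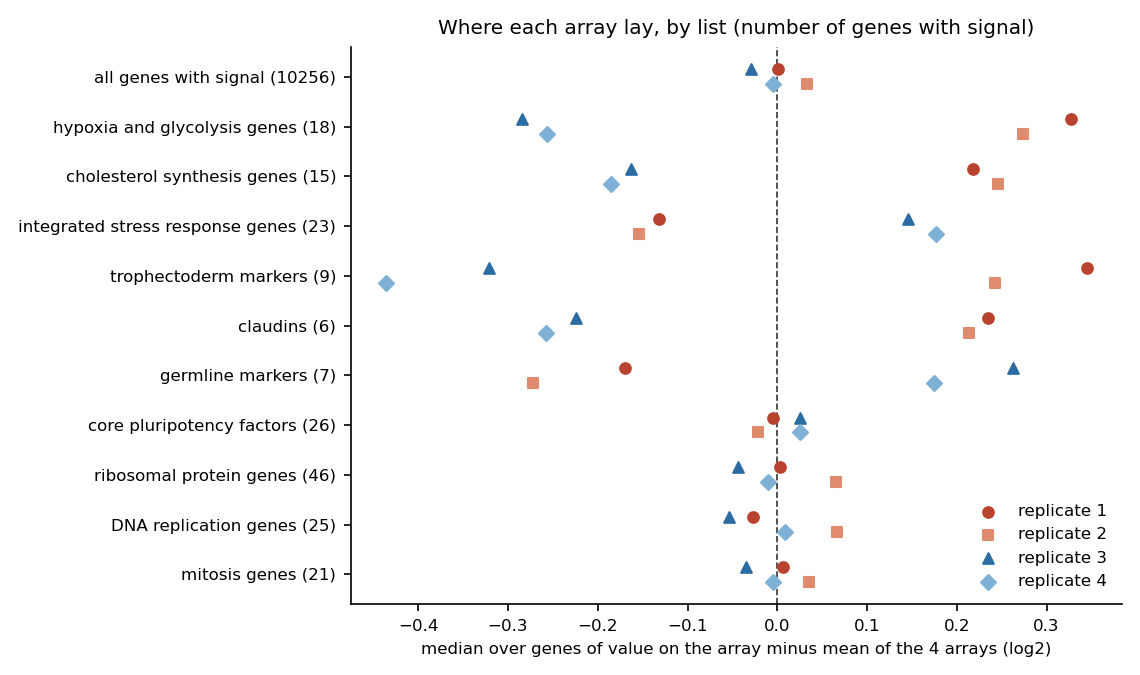
Median, over the genes of a list with signal, of the value on each Luc control array minus the gene's mean of the 4 arrays (log2), with the number of genes in brackets. Hypoxia, cholesterol, trophectoderm and claudin genes had replicates 1 and 2 (red) on the right, stress response and germline genes had them on the left, and core pluripotency, ribosomal, replication and mitosis genes stayed within 0.07 of 0.

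Noncoding and X-linked transcripts were also among the varying genes. Malat1, a nuclear long noncoding RNA, read 13.68, 14.05, 14.72 and 14.72, Dancr 10.31, 10.04, 11.08 and 11.16, and Snhg7 7.72, 7.74, 8.80 and 8.97, all lower on replicates 1 and 2. Xist, the RNA that coats the inactive X chromosome, read 7.23, 7.41, 8.27 and 8.34, and its antisense partner Tsix 5.42, 5.40, 6.68 and 6.50. The 2 overlap on opposite strands. The Y-linked genes Eif2s3y (11.90 ± 0.13) and Uty (9.11 ± 0.26) had signal on all arrays and Kdm5d (2.59) was dim. Malat1, Dancr and Snhg7 were named after their values were seen.

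The promoters of the hypoxia genes that varied most are shown because HIF, the factor that induces these genes when oxygen is low, binds the core letters ACGTG. Windows of 300 bases, from 250 before to 50 after the RefSeq start in build GRCm38.p6, were at hand for 7 of the 8 hypoxia genes with signal and an SD of at least 0.5 (not for Ndrg1). Adm, a list member that was dim on average (3.75, SD 0.93), had a window too, which held 0 matches and is not shown. They are printed 5′ to 3′ along the gene, with ACGTG on either strand in capitals, so that CACGT is the match on the other strand and CACGTG holds both.
Ankrd37 promoter, chr8:45999801-46000100, minus strand: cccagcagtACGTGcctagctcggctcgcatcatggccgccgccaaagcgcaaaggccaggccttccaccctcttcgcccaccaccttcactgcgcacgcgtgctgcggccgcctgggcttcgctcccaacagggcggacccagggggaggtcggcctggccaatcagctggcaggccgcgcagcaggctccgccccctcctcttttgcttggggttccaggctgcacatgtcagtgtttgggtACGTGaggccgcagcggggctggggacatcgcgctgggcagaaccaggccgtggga
Bnip3 promoter, chr7:138909457-138909756, minus strand: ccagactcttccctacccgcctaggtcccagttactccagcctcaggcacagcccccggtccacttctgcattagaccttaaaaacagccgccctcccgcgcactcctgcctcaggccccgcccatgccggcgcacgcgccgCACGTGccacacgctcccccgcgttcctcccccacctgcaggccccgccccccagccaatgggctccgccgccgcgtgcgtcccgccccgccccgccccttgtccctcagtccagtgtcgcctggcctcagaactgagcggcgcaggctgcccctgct
Ddit4 promoter, chr10:59951721-59952020, minus strand: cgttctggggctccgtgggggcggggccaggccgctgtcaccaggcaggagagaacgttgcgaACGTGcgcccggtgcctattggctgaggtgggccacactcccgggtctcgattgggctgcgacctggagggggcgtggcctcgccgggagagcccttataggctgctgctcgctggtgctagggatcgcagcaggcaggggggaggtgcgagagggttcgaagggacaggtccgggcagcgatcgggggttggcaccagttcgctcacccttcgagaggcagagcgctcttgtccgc
Egln1 promoter, chr8:124949205-124949504, minus strand: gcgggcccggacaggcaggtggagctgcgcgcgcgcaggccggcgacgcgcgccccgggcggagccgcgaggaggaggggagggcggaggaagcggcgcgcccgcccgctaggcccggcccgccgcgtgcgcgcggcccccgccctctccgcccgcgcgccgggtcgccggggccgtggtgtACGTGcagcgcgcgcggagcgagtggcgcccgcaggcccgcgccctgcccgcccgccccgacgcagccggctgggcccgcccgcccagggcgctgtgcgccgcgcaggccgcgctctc
Egln3 promoter, chr12:54203825-54204124, minus strand: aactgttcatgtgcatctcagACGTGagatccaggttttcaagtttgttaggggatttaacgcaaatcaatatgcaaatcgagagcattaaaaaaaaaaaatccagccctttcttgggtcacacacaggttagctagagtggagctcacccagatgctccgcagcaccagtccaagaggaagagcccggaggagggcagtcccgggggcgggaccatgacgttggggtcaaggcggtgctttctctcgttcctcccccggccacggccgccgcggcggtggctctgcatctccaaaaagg
P4ha1 promoter, chr10:59323046-59323345, plus strand: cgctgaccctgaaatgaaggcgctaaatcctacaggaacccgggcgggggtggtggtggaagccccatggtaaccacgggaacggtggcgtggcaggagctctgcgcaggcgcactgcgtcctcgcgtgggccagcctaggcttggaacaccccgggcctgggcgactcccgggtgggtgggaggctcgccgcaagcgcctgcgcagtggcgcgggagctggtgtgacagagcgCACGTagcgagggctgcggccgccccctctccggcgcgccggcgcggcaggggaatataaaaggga
P4ha2 promoter, chr11:54100674-54100973, plus strand: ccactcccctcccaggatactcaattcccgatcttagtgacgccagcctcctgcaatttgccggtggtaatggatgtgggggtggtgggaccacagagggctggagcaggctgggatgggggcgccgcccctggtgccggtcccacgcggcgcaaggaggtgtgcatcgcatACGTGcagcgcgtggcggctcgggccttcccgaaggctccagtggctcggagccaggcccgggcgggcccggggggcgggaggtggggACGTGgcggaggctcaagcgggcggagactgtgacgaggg

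The 7 windows shown held 1 match in Ddit4, Egln1, Egln3 and P4ha1 and 2 in Ankrd37, Bnip3 and P4ha2. Over the whole list 13 of 18 windows did (72.2%), beside 3336 of the 14367 windows at hand for genes on the arrays (23.2%), which cover 79.0% of those genes. In the integrated stress response list ACGTG stood in 6 of 21 windows (28.6%), near that share of all windows. A second string, TGATGNAA, the core of sites bound by Atf4 with a C/EBP partner, stood in 6 of 21 windows of the integrated stress response list (28.6%) and 0 of 18 of the hypoxia list, beside 396 of 14367 (2.76%). The stress response genes with it were Asns, Chac1, Nupr1, Pck2, Slc7a11 and Trib3. Both strands were searched, the strings can overlap by the letters TG, and both were chosen after the array values were seen. A match is a description of the letters and not evidence of binding. The hypoxia list names HIF targets and the stress response list names targets of Atf4. A high share of each string can therefore follow from how the lists were made, and it says nothing about these arrays. For the cholesterol list a window was at hand for only 11 of 15 genes, under 80%, so the search there is void. With windows for 79.0% of all genes, also under 80%, the shares over all windows describe the windows at hand and not all genes, and no comparison of genes with signal and dim genes was made.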

How the data were processed

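RNA from Luc control R1/E ESCs was hybridised to 4 Affymetrix mouse arrays, the ones used here. The authors made the deposited log2 values with GCRMA, which corrects background by probe GC content and normalizes and summarizes probe sets, in Partek Genomics Suite 6.4. GCRMA sets all arrays to a common distribution and draws dim probe sets to a low plateau. The deposited table held 45101 probe sets, of which 64 were controls. A single gene symbol was given for 34945, several for 932 and none for 9160, and Entrez ID matched 34741 of the first kind to GRCm38.p6, which changed 0 symbols. The brightest single-symbol probe set stood for a gene. Means, SDs and counts were computed in Python 3.11.15 with pandas 2.3.3 and numpy 2.4.6, and plots with matplotlib 3.10.9. No test of a difference was run, since 1 group is described, and Dixon's limit for a single array far from the others was applied to the named genes. SDs measure the spread between 4 arrays, whose number limits the precision. The computation was tested on simulated data.

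Members and the 118 gene lists were chosen with earlier results of these data known. Per-array values are given for Pou5f1, Nanog, Sox2 and the 20 genes with signal and the largest SD. They are also given for the 5 members with signal and the largest SD in each of the transcription factor, receptor and ligand classes of lists. Means are given for up to 12 members with signal per list and for dim members of lists of up to 12. Further genes, among them the per-array values of list members, dim defining markers and genes near the limit, were named after their values were seen. Alternatives changed the limit of 4, the choice of probe set, the scaling, the SD limit and the arrays included.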

Additional observations from a re-analysis of the deposited data

Results flagged for a closer look

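Among the 279 genes named in the text, 14 (5.02%) had 1 array whose gap to the nearest other array took up more of the gene's whole range over the 4 arrays than Dixon's 95% critical value allows. A limit of this kind marks about 1 in 20 groups by chance. Replicate 1 stood apart in 5 of them, replicate 2 in 4, replicate 3 in 3 and replicate 4 in 2.

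Among the genes with signal, the gap was 0.948 of the range for Acvr2b, an activin receptor, with replicate 3 lowest at 7.57 and the others between 8.17 and 8.20. For Cdh1 (E-cadherin) it was 0.908, with replicate 2 lowest at 13.87. For Hoxa5 it was 0.837, with replicate 1 highest at 5.10. For Srebf2, a regulator of cholesterol genes, it was 0.841, with replicate 3 lowest at 8.69. For Zic2 it was 0.872, with replicate 1 lowest at 8.47.

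Among the dim genes, the gap was 0.920 for Tgfb2, which reached 4.92 on replicate 1, 0.971 for Tgfbr2, which reached 4.25 on replicate 2, and 0.837 for Adm, which reached 5.14 on replicate 1. The other dim genes stayed under 4 on every array. Their gaps were 0.907 for Col1a1, 0.927 for Dcn, 0.899 for Dhh, 0.894 for Hk3, 0.832 for Rec8 and 0.955 for Rps16.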

How the results depend on the processing

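The count of genes with signal stayed within 1.5 times its value under every alternative run, with 10249 to 10268 when a replicate was left out. Members of the receptor lists with signal fell from 91 to 60 when the median of a gene's probe sets replaced the brightest. In that setting 105 of 1487 list members lost signal, and 35 of 1324 did without probe sets that may match several transcripts. A limit of 3.5 added 52 members, 5 removed 56, and asking for 4 on every array removed 12. Varying genes numbered 125 at an SD of 0.5, 283 at 0.4, 2 at 1, and 67 with a mean of at least 6, and lay between 138 and 146 when a replicate was left out. With the SD pooled within replicates 1 and 2 and within replicates 3 and 4 they numbered 26, and 2 of the 20 genes with the largest SD stayed among the 20, which follows from leaving the division of the arrays out of the SD. Quantile normalization and centring on bright probe sets kept all 20. The deposited values already had a common distribution, so this says little. By contrast, 14 stayed with the median of probe sets and 14 without probe sets that may match several transcripts. Without replicate 1, 2 or 4 14 stayed, and 17 without replicate 3. The lowest correlation of 2 arrays was 0.998 over all probe sets and 0.994 over those with a mean of at least 4, a smaller range of values. The orders of the arrays in the hypoxia, cholesterol and stress response lists were recomputed under 4 settings, a comparison chosen after seeing the data. Hypoxia genes higher on replicates 1 and 2 numbered 15 or 16, cholesterol genes 12 to 14, and stress response genes lower on them 12 to 19, with 18 as reported and 12 without probe sets that may match several transcripts. The promoter comparison at a limit of 5 was not run, since windows were too few. No paired analysis was possible because 1 group is described and no value comes from a test. A limit of 4 separates probe sets, not expressed from silent genes.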

Other observations

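Gene groups outside the signalling and lineage lists also had signal in the Luc control cells. All 15 metallothionein and heat shock genes did, with the chaperones Hspa8 at 16.17 ± 0.05 and Hsp90aa1 at 15.89 ± 0.07 (SD, n = 4) and the zinc-binding Mt2 at 14.78 ± 0.11. Of 19 p53 targets 18 did, among them Ccng1 (13.04 ± 0.05), Mdm2 (10.25 ± 0.05) and Cdkn1a, the cell cycle inhibitor p21 (9.13 ± 0.24), with the death receptor gene Fas the only dim member at 3.32. Interferon response genes had signal in 7 of 20 cases, beside 56.4% of all genes. Oas1a read 9.27 ± 0.18 and Ddx58, the RNA sensor RIG-I, 9.16 ± 0.21, whereas Ifit1 (2.02), Mx1 (2.91) and Irf7 (2.18) were dim.

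In the Bcl2 family, which sets the threshold for apoptosis, 12 of 15 members had signal. The survival gene Mcl1 read 14.49 ± 0.06, and the death-promoting Bid 9.60 ± 0.01, Pmaip1 (Noxa) 9.56 ± 0.17 and Bcl2l11 (Bim) 9.44 ± 0.10, while Bcl2 was dim at 3.11. Of 8 genes of the Polycomb complex that methylates histone H3, 6 had signal, among them Eed (14.39 ± 0.06), Ezh2 (12.88 ± 0.03), Suz12 (12.60 ± 0.04), and Ezh1 (6.71 ± 0.25). Scd1, a fatty acid desaturase, read 10.43, 10.33, 9.40 and 9.50 on replicates 1 to 4, and the related Scd2 read 14.03, 13.93, 13.04 and 13.16, both higher on replicates 1 and 2. Adm, a hypoxia list gene that was dim on average, read 5.14, 3.45, 3.32 and 3.12, so that replicate 1 alone passed 4. The genes in both paragraphs were named after their values were seen.

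Probe sets without a single gene symbol, 10092 in number, had signal in 1674 cases (16.6%). Of 6507 genes with several probe sets and at least 1 with signal, all probe sets had signal in 2536 (39.0%) and only the brightest in 2182.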
